A study of Mus musculus with 5 samples.

Results

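The respiratory chain subunits examined here are 40 nuclear genes of complexes I to IV, out of 18194 named genes measured. They were taken as a named list: 25 genes of complex I, 4 of complex II, 6 of complex III and 5 of complex IV. Each gene was read from its probe set (a group of short probes against the 3′ part of 1 transcript) that the platform annotation assigns to that gene alone, and where several existed, from the one with the highest mean over the 5 arrays. All 40 genes had such a probe set. Values are log2 expression values, so a difference of 1 is a doubling.

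RNA came from thoracic aortas of male C57BL/6 mice and was hybridised to Affymetrix Mouse Genome 430 2.0 arrays. The mice of 3 arrays carried a transgene for a dominant negative mutant of human PPAR gamma, P467L, under control of the promoter of smooth muscle myosin heavy chain (SMMHC). The mice of the other 2 arrays were non-transgenic littermates. A single array represents a pool of 6 to 8 aortas, and no age was given in the labels. The promoter targets the transgene to smooth muscle, whereas the arrays read the whole vessel with any other cells left on it. Each pool also hides the spread between its mice. Because the tissue was measured in bulk, fewer cells of a type and less RNA per cell cannot be told apart.

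The defining smooth muscle genes were present: Acta2, smooth muscle actin, had 14.79, 14.81 and 14.83 in the P467L arrays, against 14.79 and 14.80 in the non-transgenic arrays. P467L replicate 1 stood apart from the other arrays, with correlations of 0.985 to 0.991 to them over all probe sets, while those 4 arrays correlated with each other at 0.995 to 0.997. That array was the lowest by 1 log2 unit or more in 842 of 45037 probe sets. Non-transgenic replicate 2 had 56 probe sets at least 1 log2 unit above every other array, and the stomach gene Chia1 was among its high ones at 11.53. Medians of the complexes and of lists that moved with these arrays are also given without them.

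The respiratory chain passes electrons from NADH and succinate to oxygen across the inner mitochondrial membrane. Complex I accepts electrons from NADH and complex II from succinate, both hand them to ubiquinone, complex III moves them to cytochrome c, and complex IV reduces oxygen. Complexes I, III and IV pump protons, and ATP synthase uses the resulting gradient. In vascular smooth muscle the chain works beside a high rate of glycolysis, and the thoracic aorta is wrapped in brown-like fat that is rich in mitochondria. PPAR gamma is a nuclear receptor best known for fat cell differentiation, and its coactivators of the PGC-1 family promote transcription of respiratory chain genes.

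The transcripts of the chain differed little between P467L and non-transgenic aortas. The 40 differences (P467L minus non-transgenic) ran from -0.18 for Ndufa10 to 0.16 for Sdhc, which are 0.881-fold and 1.12-fold. Their median was -0.04, with 30 genes lower and 10 higher, against a median of 0.00 over all 45037 probe sets and of 0.04 over the 3718 named genes with a mean of at least 9.5, the level that 39 of the 40 reached. Limma called 0 of the 40 at an adjusted p of 0.05, where it called 0 (0%) of all probe sets. The adjusted p of the 40 genes ran from 0.633 to 1.

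At an unadjusted p under 0.05, 1 of the 40 was lower and 0 were higher, where 2.74% of all probe sets were lower and 4.71% were higher. In 3 of the 40, or 7.5%, all P467L arrays lay below both non-transgenic arrays, against 7.61% of all probe sets. In 1 of the 40, or 2.5%, all P467L arrays lay above both, against 11.2% of all probe sets. These counts of lower genes are near the background. Among the 3718 brighter genes, all P467L arrays lay below both non-transgenic arrays in 7.77% and above both in 26.7%. By the direction of the difference alone, 75% of the 40 genes were lower, against 33.3% of the brighter genes. This direction was not tested. A difference beyond 0.20 in either direction was seen in 0 of the 40, in 15.1% of all probe sets and in 17.3% of the 3718 brighter genes. The limit of 0.20 was chosen after the values were seen.

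The precision of each difference is given by its 95% interval in the limma fit. For 39 of the 40 genes the intervals lay between -0.44 and 0.43, so that changes beyond 0.739-fold or 1.35-fold fell outside them. The exception was Cox7c, whose interval ran from -0.75 to 0.52. The interval contained 0 in 39 genes, and the exception there was Ndufa10. The plot of each subunit's difference shows these intervals by complex.

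**Figure D1:**
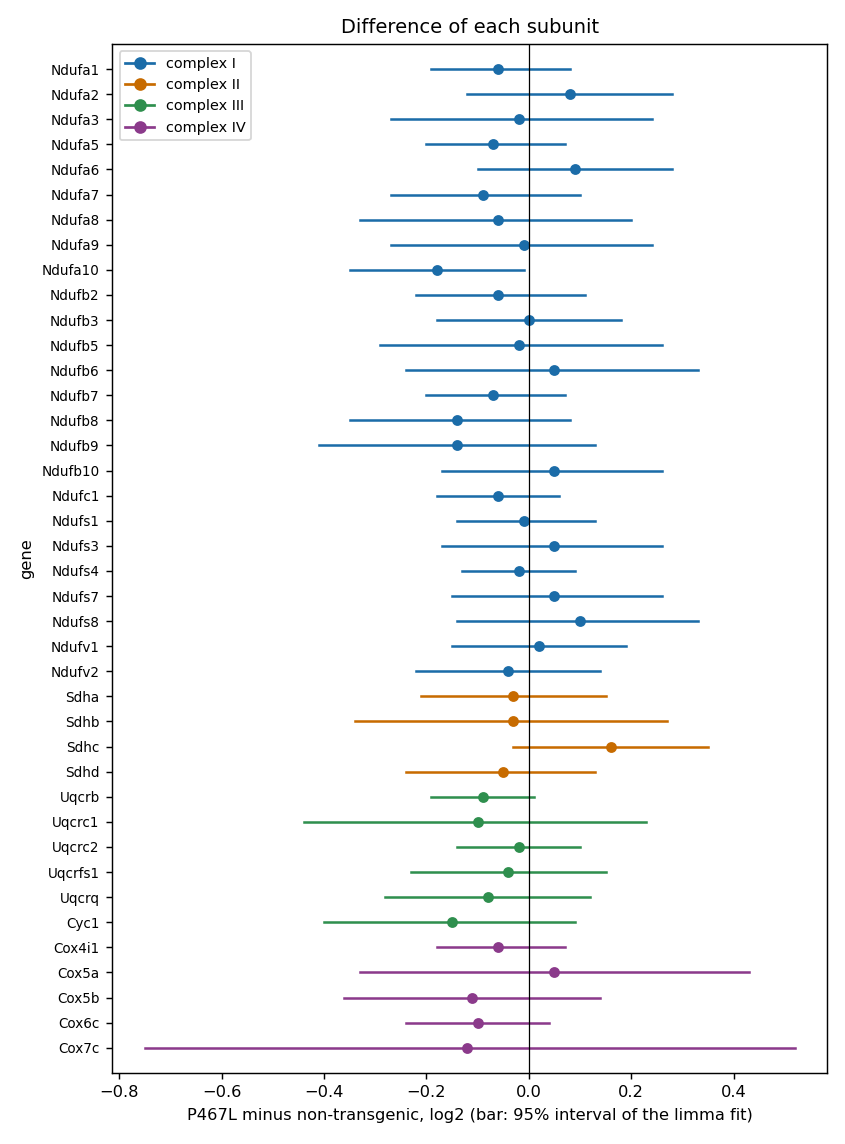
Difference between P467L and non-transgenic aortas for each of the 40 subunits on the log2 scale, with the 95% interval of the limma fit as a bar, coloured by complex. The points lie between -0.18 and 0.16, and only the interval of Ndufa10 leaves out 0.

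Complex I is the largest of the complexes and was represented by 25 genes with a median difference of -0.02, 17 lower and 8 higher. Ndufa10, an accessory subunit of the membrane arm, had 10.99, 10.88 and 10.88 in the P467L arrays, against 11.16 and 11.04 in the non-transgenic arrays. All P467L values of Ndufa10 lay below both non-transgenic values. The difference was -0.18 (SE 0.06, adjusted p = 0.633), the smallest p among the 40 genes. A second, dimmer Ndufa10 probe set gave 0.02.

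The gene of complex I with the smallest p among those higher in P467L aortas was Ndufa6, an accessory subunit of the LYR protein family. It had 11.51, 11.40 and 11.32 in P467L arrays, against 11.34 and 11.30 in non-transgenic arrays. The groups overlapped, since P467L replicate 3 lay between the non-transgenic arrays, and the difference was 0.09 (SE 0.07, adjusted p = 0.789). Ndufb8 and Ndufb9, accessory subunits of the membrane arm, had differences of -0.14 each (SE 0.08 and 0.10).

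The subunits that carry the flavin and iron-sulphur clusters make up the conserved catalytic core of complex I. The division into core and accessory genes was made after the values were seen, so it carries no test. The 6 core genes had a median difference of 0.03. Ndufs8 measured 0.10 (SE 0.09), Ndufs7 and Ndufs3 0.05 each (SE 0.08), Ndufv1, which holds the flavin, 0.02 (SE 0.06), Ndufs1 -0.01 (SE 0.05) and Ndufv2 -0.04 (SE 0.07). The 19 accessory genes had a median difference of -0.06, with 15 lower and 4 higher. Without non-transgenic replicate 2 and P467L replicate 1, Ndufs3, Ndufs7, Ndufs8 and Ndufv1 all lay below 0, at -0.06, -0.06, -0.01 and -0.07.

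The remaining accessory genes of complex I stayed within 0.10 of 0. The lower ones were Ndufa7 at -0.09, Ndufa5 and Ndufb7 at -0.07, Ndufa1, Ndufa8, Ndufb2 and Ndufc1 at -0.06, Ndufa3, Ndufb5 and Ndufs4 at -0.02, Ndufa9 at -0.01 and Ndufb3 at 0.00. The higher ones were Ndufa2 at 0.08 and Ndufb6 and Ndufb10 at 0.05. Ndufs4 is the subunit whose loss in mice gives a Leigh-like disease, and its 3 P467L values of 9.54, 9.54 and 9.49 lay close to both non-transgenic values, 9.57 and 9.51. A second bright probe set of Ndufb6 gave -0.16 and of Ndufc1 -0.17, so the direction for Ndufb6 depends on the probe set, and the second Ndufc1 probe set had groups that did not overlap.

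Complex II, succinate dehydrogenase, is also an enzyme of the tricarboxylic acid cycle. Its 4 genes had a median difference of -0.03, and leaving out non-transgenic replicate 1 gave 0.04, P467L replicate 3 gave 0.03 and both arrays that stood apart gave -0.12. Sdhc, which encodes a membrane anchor that binds ubiquinone, had 11.68, 11.58 and 11.49 in P467L arrays, against 11.45 and 11.40 in non-transgenic arrays. Sdhc was the only one of the 40 genes whose P467L values all lay above both non-transgenic values, with a difference of 0.16 (SE 0.07, adjusted p = 0.753).

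Its second probe set, also bright, read 10.20, 10.07 and 10.15 in P467L arrays, against 10.19 and 10.21 in non-transgenic arrays, a difference of -0.06 (SE 0.05). The 2 probe sets of Sdhc therefore disagreed in direction. The other anchor, Sdhd, had 10.49, 10.42 and 10.31 in P467L arrays, against 10.49 and 10.43 in non-transgenic arrays, and the groups overlapped at a difference of -0.05 (SE 0.07, adjusted p = 0.863). The flavoprotein Sdha and the iron-sulphur protein Sdhb, the catalytic subunits, had differences of -0.03 each (SE 0.07 and 0.11).

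Complex III, the cytochrome bc1 complex, had 6 genes, all lower in the P467L mean, with a median difference of -0.09 and a range from -0.15 to -0.02. The median depended on the arrays. Leaving out non-transgenic replicate 1 gave -0.02, leaving out P467L replicate 3 gave -0.03, and leaving out both arrays that stood apart gave -0.15. With the mean over each gene's probe sets it was -0.04. Uqcrb, a subunit that contacts the ubiquinone site, had 13.55, 13.59 and 13.54 in P467L arrays, against 13.65 and 13.65 in non-transgenic arrays. These groups did not overlap, and the difference was -0.09 (SE 0.04, adjusted p = 0.705). A second bright Uqcrb probe set gave 0.02, with groups that overlapped.

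Cyc1, the cytochrome c1 that passes electrons on to cytochrome c, had the largest difference of the complex. It measured 11.24, 11.13 and 11.08 in P467L arrays, against 11.41 and 11.20 in non-transgenic arrays, with a difference of -0.15 (SE 0.09, adjusted p = 0.784). P467L replicate 1 lay between the non-transgenic arrays. The core proteins Uqcrc1 and Uqcrc2 had differences of -0.10 (SE 0.12) and -0.02 (SE 0.04), the Rieske iron-sulphur protein Uqcrfs1 -0.04 (SE 0.07) and the small subunit Uqcrq -0.08 (SE 0.07).

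Complex IV, cytochrome c oxidase, had 5 genes with a median difference of -0.10, and 4 of them were lower. This median counts Cox7c, which was read from a dim probe set. With the mean over each gene's probe sets the median was -0.05. Cox6c, a small accessory subunit, had 12.59, 12.55 and 12.48 in P467L arrays, against 12.68 and 12.60 in non-transgenic arrays. The groups did not overlap, although P467L replicate 1 lay close to non-transgenic replicate 2, and the difference was -0.10 (SE 0.05, adjusted p = 0.784). A second bright Cox6c probe set gave 0.07.

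Cox5a was the 1 gene of complex IV with a higher P467L mean. It had 12.12, 11.80 and 11.77 in P467L arrays, against 11.94 and 11.75 in non-transgenic arrays, so that P467L replicate 1 alone lay above both non-transgenic arrays. The difference was 0.05 (SE 0.14, adjusted p = 0.938), other Cox5a probe sets gave -0.15 and -0.03, and without non-transgenic replicate 2 and P467L replicate 1 the difference was -0.15. Cox5b measured -0.11 (SE 0.09), with values from -0.18 to -0.02 over its 4 bright probe sets, and Cox4i1, the ubiquitous form of the subunit that regulates the enzyme's response to ATP, -0.06 (SE 0.05).

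Cox7c could be read only from a dim probe set, with 6.34, 6.87 and 7.05 in P467L arrays, against 6.87 and 6.87 in non-transgenic arrays. Its difference of -0.12 (SE 0.23, adjusted p = 0.913) was the largest of complex IV and rested on P467L replicate 1. Its mean of 6.80 is near the array medians of 6.17 to 6.25, and without Cox7c the median over the other 39 genes was -0.04.

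Of the 40 genes, 26 had further single-gene probe sets. Among these 49 probe sets, 30 reached a mean of 9.5, and 19 of the 30 had the same sign of difference as the brightest probe set. The gap between the 2 readings of a gene had a median of 0.05 and a largest value of 0.22, which is as large as the differences between the genotypes.

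The spread between arrays of the same genotype was as large as the spread between the genotypes, and it was shared by most of the subunits. P467L replicate 1 was the highest of the 3 P467L arrays in 37 of the 40 genes, ties included, and replicate 3 was the lowest in 36. P467L replicate 1 exceeded replicate 3 in 95% of the 40 genes, by a median of 0.17. Among the 3718 brighter genes it did so in 59.1%, by a median of 0.06. Likewise non-transgenic replicate 1 exceeded replicate 2 in 90% of the 40 genes, by a median of 0.08, and in 42.1% of the brighter genes.

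Relative to each gene's non-transgenic mean, the medians over the 40 genes were 0.03, -0.04 and -0.11 in P467L replicates 1 to 3, against 0.04 and -0.04 in the non-transgenic arrays. By this measure P467L replicate 3 alone fell outside the span of the 2 non-transgenic arrays. In 29 of the 40 genes P467L replicate 3 lay below both non-transgenic arrays, and in 16 P467L replicate 1 lay above both. The median difference was 0.00 without P467L replicate 3, 0.01 without non-transgenic replicate 1, and -0.08 without either P467L replicate 1 or non-transgenic replicate 2. With both of the latter arrays left out it was -0.12, from 2 P467L arrays and 1 non-transgenic array.

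The complexes followed the same array pattern. In complex I the array medians were 0.05, -0.04 and -0.11 for P467L, against 0.04 and -0.04 for non-transgenic. In complex II they were 0.09, -0.04 and -0.13, against 0.04 and -0.04. In complex III they were 0.01, -0.06 and -0.15, against 0.05 and -0.05, and in complex IV -0.01, -0.06 and -0.10, against 0.04 and -0.04. P467L replicate 3 was the lowest array in each complex. The difference between complexes was not tested.

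**Figure D2:**
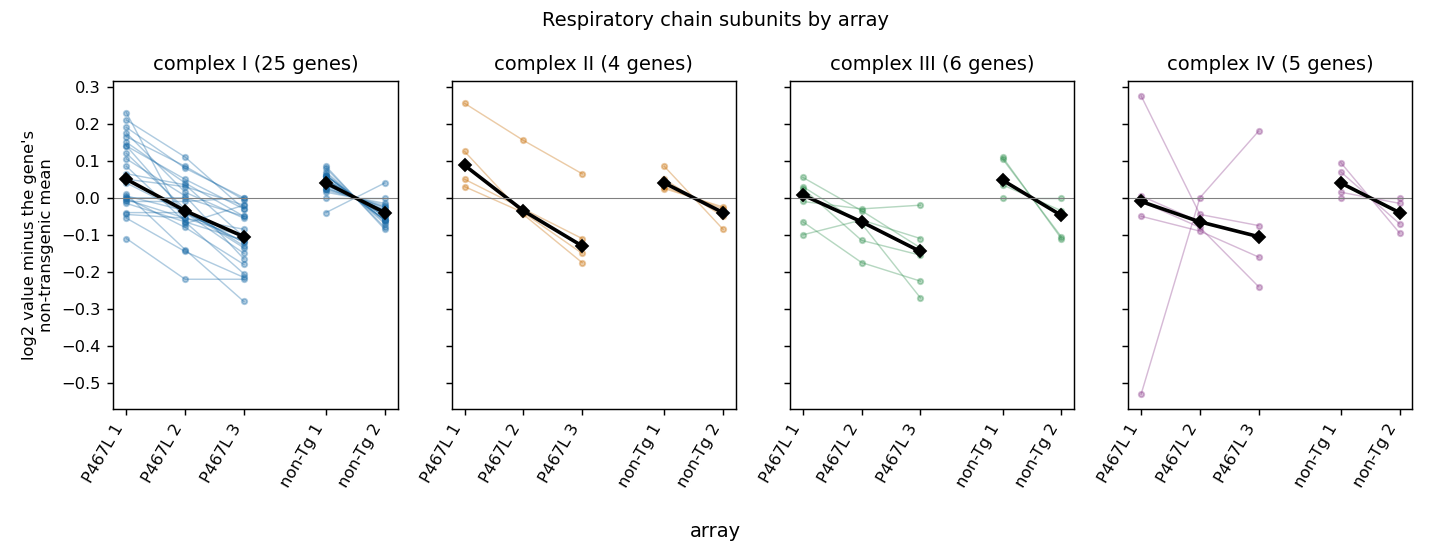
Log2 value of each subunit minus its mean in the 2 non-transgenic arrays, for the 3 P467L arrays and the 2 non-transgenic arrays, in a panel for each complex. Thin lines join the values of 1 gene, and black diamonds are the medians, which lie lowest in P467L replicate 3 in every panel, between -0.15 and -0.10.

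Centring each array on its median moved the median over all probe sets by 0.04. With it, the median difference of the 40 genes was 0.00, that of complex I 0.02 and that of complex II 0.01, so that complexes I and II changed sign. Complexes III and IV remained negative, at -0.05 and -0.06. A second quantile normalization moved the median of the 40 genes the other way, to -0.08. With it the medians were -0.06, -0.07, -0.11 and -0.10 for complexes I to IV. The size and sign of these small medians therefore depended on the scaling.

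The other genes of oxidative phosphorylation gave similar values. Limma called 0 genes of any list described from here on. Of the 8 complex I subunits outside the 40 that were measured, 4 were higher and 4 lower, with a median of 0.02, and Ndufv3 measured 0.15 (SE 0.07) and Ndufb4 0.09 (SE 0.11). Ndufb4 was read from a dim probe set, with means of 4.18 in P467L and 4.09 in non-transgenic arrays. The 3 further complex III subunits had a median of -0.05, with -0.10 (SE 0.08) for Uqcr11 and -0.03 (SE 0.05) for Uqcrh. The 5 further complex IV subunits also had a median of -0.05, with -0.11 (SE 0.06) for Cox6a1 and -0.10 (SE 0.09) for Cox8a. For ATP synthase 11 of 16 genes were lower and 4 higher, at a median of -0.03, with -0.12 (SE 0.06) for Atp5k, a subunit of its membrane part, and -0.10 (SE 0.05) for Atp5b, the catalytic β subunit. Its array medians were 0.02, -0.02 and -0.12 in P467L, against 0.03 and -0.03 in non-transgenic arrays.

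The electron carriers that feed or link the complexes were lower in the P467L mean in 4 of 4 genes, with a median of -0.12. Etfa, the α subunit of the flavoprotein that takes electrons from fatty acid oxidation, had 10.83, 10.76 and 10.86 in P467L arrays, against 11.12 and 10.97 in non-transgenic arrays. The groups of Etfa did not overlap, and the difference was -0.23 (SE 0.06, adjusted p = 0.549). Cytochrome c, Cycs, measured -0.14 (SE 0.07). In the tricarboxylic acid cycle 7 of 12 genes were lower and 5 higher, at a median of -0.02, with -0.22 (SE 0.07) for Suclg2, a subunit of succinyl-CoA ligase, and 0.14 (SE 0.07) for the malate dehydrogenase Mdh2.

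Genes that build the chain rather than belong to it had medians above 0. Of 39 assembly factors 32 were higher and 7 lower, with a median of 0.07; Foxred1, a complex I assembly factor, measured 0.25 (SE 0.12) and Cox20, which assists complex IV, -0.14 (SE 0.04). Of 73 mitochondrial ribosomal proteins 63 were higher and 9 lower, with a median of 0.07, and Mrps10 measured 0.31 (SE 0.08) and Mrpl52 0.13 (SE 0.05). These medians compare with 0.02 over all 18194 named genes. P467L replicate 1 was the highest array in both lists, with array medians for the mitochondrial ribosome of 0.20, 0.04 and -0.01 in P467L, against 0.01 and -0.01 in non-transgenic arrays. Without P467L replicate 1 the median was 0.02 for the assembly factors, with 23 higher and 12 lower, and 0.02 for the mitochondrial ribosome, with 43 higher and 27 lower. Without both arrays that stood apart it was 0.00 for each. In 91.8% of the mitochondrial ribosomal genes P467L replicate 1 exceeded replicate 3, while for 43 cytosolic ribosomal proteins this share was 58.1%. The cytosolic ribosomal genes had a median of 0.02, with 0.38 (SE 0.04, adjusted p = 0.209) for Rpl37 and -0.21 (SE 0.04, adjusted p = 0.367) for Rps19.

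Glycolysis, the other route to ATP, had 12 measured genes with a median of 0.05, 9 higher and 3 lower. Its sign turned without P467L replicate 1, at -0.02, without non-transgenic replicate 2, at -0.01, and without both, at -0.07. The phosphofructokinase Pfkp measured -0.33 (SE 0.08, adjusted p = 0.504) and the lactate dehydrogenase Ldha 0.27 (SE 0.08, adjusted p = 0.588).

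**Figure D3:**
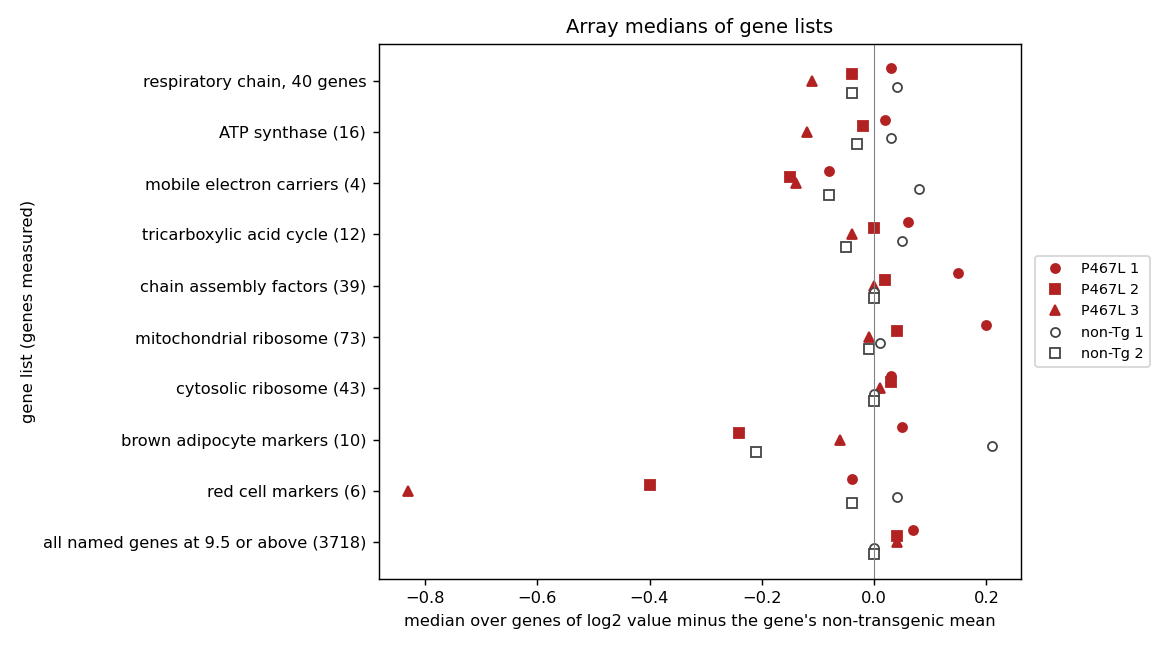
Median over each gene list of the log2 value minus the gene's non-transgenic mean, with 1 point per array (filled red, P467L replicates 1 to 3; open, non-transgenic replicates 1 and 2). The respiratory chain and ATP synthase show the same spread of arrays, the mitochondrial ribosome is highest in P467L replicate 1 at 0.20, and the red cell markers are lowest in P467L replicate 3 at -0.83.

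The transcriptional regulators of mitochondrial biogenesis gave a median of 0.00 for 13 genes, of which 6 were higher. Ppargc1b, which encodes the coactivator PGC-1β, had 7.61, 7.56 and 7.63 in P467L arrays, against 8.07 and 7.98 in non-transgenic arrays. All P467L values lay below both non-transgenic values, and the difference was -0.43 (SE 0.05), or 0.745-fold. It did not pass the test over all probe sets (unadjusted p = 0.000675, adjusted p = 0.229). Over the alternatives the difference ran from -0.47 to -0.38 and the adjusted p from 0.116 to 0.839, except 0.0185 with array weights, whose estimation did not converge, and it was -0.47 without the 2 arrays that stood apart.

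Ppargc1a, which encodes the related PGC-1α, had 5.50, 5.79 and 5.88 in P467L arrays, against 5.74 and 5.71 in non-transgenic arrays, a difference of 0.00 (SE 0.13). All these values lay below the array medians of 6.17 to 6.25, so this dim probe set says little about Ppargc1a. Polrmt, the mitochondrial RNA polymerase, measured 0.17 (SE 0.05, adjusted p = 0.549), with groups that did not overlap, and Tfam, the packaging factor of mitochondrial DNA, 0.01 (SE 0.04). Pparg itself measured 0.17 (SE 0.13), by a mouse probe set whose reading of the human transgene is not known.

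Of the complex IV isoforms typical of heart, skeletal muscle and brown fat, Cox8b and Cox7a1 differed widely between arrays, while Cox6a2 did not. Cox8b had 9.15, 8.27 and 8.82 in P467L arrays, against 9.81 and 8.38 in non-transgenic arrays. Cox7a1 had 7.39, 6.61 and 6.97 in P467L arrays, against 8.15 and 6.92 in non-transgenic arrays. For both, non-transgenic replicate 1 was the highest and the groups overlapped, with differences of -0.35 (SE 0.53) and -0.54 (SE 0.46).

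The muscle isoform Cox6a2 measured -0.05 (SE 0.04) and the lung-enriched isoform Cox4i2 0.04 (SE 0.07). Among the 9 genes of this list the smallest p belonged to the testis isoform Cox8c, at -0.12 (SE 0.04, adjusted p = 0.617), followed by Cox6b2, also a testis isoform, at 0.26 (SE 0.14, adjusted p = 0.784).

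Cox8b and Cox7a1 also belong to the list of brown adipocyte markers, whose members did not share 1 array order. Ucp1, the uncoupling protein of brown fat, had 8.86, 7.82 and 8.89 in P467L arrays, against 9.92 and 8.01 in non-transgenic arrays, highest in non-transgenic replicate 1 and lowest in P467L replicate 2, as were Cox8b and Cox7a1. Cidea was lowest in P467L replicate 3, at 9.32, and Dio2, which makes active thyroid hormone, was highest there, at 9.99, and lowest in P467L replicate 1, at 8.87. Of the 10 measured brown adipocyte markers 6 were lower and 4 higher, with array medians of 0.05, -0.24 and -0.06 in P467L, against 0.21 and -0.21 in non-transgenic arrays. Non-transgenic replicate 1, the higher of the 2 in the respiratory chain genes, was also the higher in these markers. Within P467L the order was not shared: replicate 3, the lowest in the respiratory chain genes, had the highest Ucp1 of the 3 and lay above replicate 2 in the marker median. The white adipocyte marker Adipoq measured 10.30, 9.54 and 9.66 in P467L arrays, against 10.39 and 9.23 in non-transgenic arrays. The 8 measured white adipocyte markers had array medians of 0.31, -0.06 and -0.14 in P467L, against 0.24 and -0.24 in non-transgenic arrays. These medians had the order of the respiratory chain genes, while Adipoq did not within P467L.

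**Figure D4:**
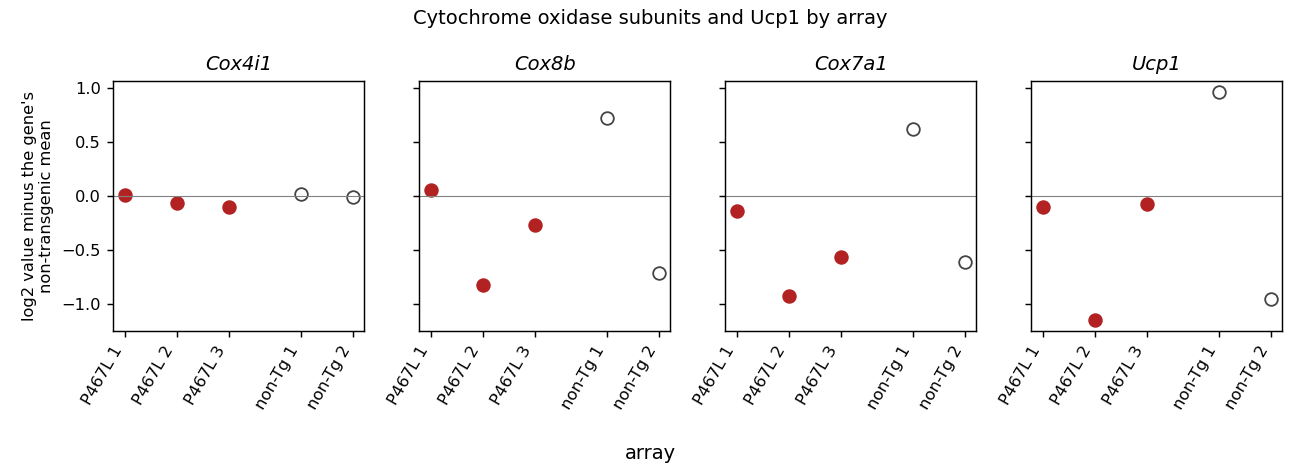
Log2 value minus the gene's mean in the non-transgenic arrays for the ubiquitous subunit Cox4i1, the isoforms Cox8b and Cox7a1, and the brown fat gene Ucp1, in each P467L array (filled red) and non-transgenic array (open). Cox4i1 varies little, while Cox8b, Cox7a1 and Ucp1 are highest in non-transgenic replicate 1 and lowest in P467L replicate 2.

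Several lists had, within each genotype, the array order of the respiratory chain genes in their array medians. Among them were ATP synthase, the tricarboxylic acid cycle, glycolysis, the mitochondrial ribosome, white adipocyte markers and skeletal muscle markers. Red cell markers had this order too, over a wider range than the respiratory chain genes. The 6 measured were all lower in the P467L mean, with array medians of -0.04, -0.40 and -0.83 in P467L, against 0.04 and -0.04 in non-transgenic arrays. Alas2, the erythroid enzyme of haem synthesis, had 11.70, 11.26 and 10.62 in P467L arrays, against 11.81 and 11.69 in non-transgenic arrays. Slc4a1, Slc25a37 and Bpgm had the same order within each genotype. Epb42 did not, with 5.79 and 5.86 in non-transgenic replicates 1 and 2, and Hba-a1 was lowest in P467L replicate 2, at 4.65. Skeletal muscle markers had a median difference of -0.04 over 10 genes and cardiac muscle markers 0.15 over 10 genes, with 4.79 (SE 0.24, adjusted p = 0.0953) for the troponin gene Tnnc1 and 1.33 (SE 0.32) for the creatine kinase Ckm. Of the 11 stomach markers 10 were lower in the P467L mean, with array medians of -0.83, -0.71 and -1.04 in P467L, against -1.46 and 1.46 in non-transgenic arrays. Their median difference of -0.91 was 0.14 without non-transgenic replicate 2. Malat1, a nuclear noncoding RNA, had 8.03, 9.69 and 9.87 in P467L arrays, against 9.45 and 9.45 in non-transgenic arrays. The part of these cell types and array features in the values of the respiratory chain genes was not tested.

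Of the remaining lists, macrophage markers were higher in the P467L mean in 10 of 10 genes, with a median of 0.23, and Laptm5 measured 0.25 (SE 0.08) and C1qb 0.35 (SE 0.12). Endothelial markers had a median of 0.07 and fibroblast markers 0.05, over 10 genes each, smooth muscle markers 0.02 over 10 genes and white adipocyte markers 0.03 over 8. The 2 smallest p values belonged to Emcn at -1.05 and Nos3 at 0.47 among endothelial markers, to Mfap5 at -0.66 and Cd248 at 0.64 among fibroblast markers, and to Des at 0.81 and Smtn at 0.16 among smooth muscle markers. They belonged to Fabp4 at -0.59 and Plin4 at 0.04 among white adipocyte markers, to Acot11 at 0.12 and Kcnk3 at 0.21 among brown adipocyte markers, and to Slc25a37 and Bpgm, both at -0.47, among red cell markers. Tnnt2 at 1.02 was the second cardiac gene, Pvalb at -0.33 the second skeletal muscle gene, and Pgc at -2.17 the second stomach gene after Chia1 at -3.10. Without non-transgenic replicate 2, Pgc measured -0.76 and Chia1 -1.19. The nuclear RNAs Meg3 and Neat1 measured -0.36 and -0.28. Without P467L replicate 1 the median of the nuclear RNAs was 0.16, against -0.28 with all arrays. Without both arrays that stood apart the median was -0.34 for white adipocyte markers, -0.36 for brown adipocyte markers, 0.14 for macrophage markers, -0.66 for red cell markers, 0.02 for cardiac markers and -0.10 for skeletal muscle markers. It was -0.11 for ATP synthase, -0.27 for the electron carriers and -0.08 for the tricarboxylic acid cycle.

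The 40 genes lie on 16 chromosomes. RefSeq promoter windows of GRCm38.p6, 250 bases before to 50 after the start site, were found for 30 of them and searched on both strands for 3 motifs of factors known to drive nuclear genes of mitochondrial proteins. The core of the NRF1 motif, GCATGCGC, was present in 4 of the 30 (13.3%), against 4.7% of 14368 genes on the array and 6.24% of those with a mean of at least 9.5. The YY1 motif AAGATGGC was present in 6 (20%), against 4.09% and 5.87%. The ETS motif CCGGAAG, read by GABP, was present in 6 (20%), against 15% and 19.7%. Any of the 3 motifs was present in 15 of the 30 (50%), against 21.7% and 28.7%, so no motif was shared by all. No match of one motif overlapped a match of another in these genes. A match describes the letters and does not show that the factor binds.

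The NRF1 core matches are shown because their share differed from that of the array's genes and because they lie in complexes I, II and III. Each run is 30 bases in the direction of the gene, with the match in capitals.

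Ndufa6, chr15:82354356-82354385, minus strand: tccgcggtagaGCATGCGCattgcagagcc

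Ndufa8, chr2:36049328-36049357, minus strand: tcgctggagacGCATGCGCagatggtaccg

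Sdhb, chr4:140961206-140961235, plus strand: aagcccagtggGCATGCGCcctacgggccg

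Uqcrc1, chr9:108936668-108936697, plus strand: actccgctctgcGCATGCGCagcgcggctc

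The differences of these 4 genes were 0.09, -0.06, -0.03 and -0.10, so genes with the motif fell on both sides of 0. The match in Uqcrc1 reads as the motif on either strand, since the letters before it complete the reverse motif.

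The YY1 matches are shown because all 6 had the same orientation and began 22 to 38 bases after the start site. All 6 were in complex I, which held 22 of the 30 promoters searched, against 3, 2 and 3 in complexes II, III and IV.

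Ndufa3, chr7:3617384-3617413, plus strand: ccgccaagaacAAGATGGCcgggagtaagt

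Ndufa9, chr6:126849097-126849126, minus strand: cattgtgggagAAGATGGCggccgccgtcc

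Ndufb8, chr19:44555393-44555422, minus strand: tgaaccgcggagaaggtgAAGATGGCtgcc

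Ndufc1, chr3:51408915-51408944, minus strand: gcctgcggaacAAGATGGCgccgtccgtag

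Ndufs4, chr13:114388045-114388074, minus strand: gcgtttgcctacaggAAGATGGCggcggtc

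Ndufs7, chr10:80249462-80249491, plus strand: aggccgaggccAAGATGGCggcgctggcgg

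The differences of these 6 genes ran from -0.14 for Ndufb8 to 0.05 for Ndufs7, within the range of the other complex I genes, and limma called 0 of them.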

How the data were processed

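RMA and Affymetrix Power Tools are named in the submitters' processing notes, and the deposited values are the authors' log2 expression values. Tool versions are not given in the sources used here. The method equalises the distributions of the arrays, which removes much of a shift common to most genes. The deposited values kept small differences, with array medians from 6.17 in P467L replicate 1 to 6.25 in both non-transgenic arrays. The values lay between 3.03 and 14.99, and 5 arrays set the precision.

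The 64 control probe sets were left out. Of 45037 probe sets, 34945 had 1 gene in the platform annotation, 932 several and 9160 none listed; symbols were updated by gene number from the GRCm38.p6 gene table. The fit was limma's (version 3.58.1, under R 4.3.3; lmFit and eBayes, two-sided, genotype alone as the term), and p-values were adjusted by Benjamini-Hochberg across the 45037 probe sets. Each test had 4.23 degrees of freedom. In 514 probe sets rounding left no spread within either group. The script was tested on simulated data. Gene lists are described by counts and medians, with no test, and SE is that of the fit.

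The members and lists were chosen with earlier results of these data known. By the naming rule, each complex gives all array values for its smallest p in each direction, its largest difference and every gene whose groups do not overlap. Each further list names the genes with its 2 smallest p values, and Ucp1, Adipoq, Ppargc1a, Pparg, Tfam, Malat1 and 4 complex IV isoforms were also named. Other genes named with values outside this rule, among them Ndufs4, Alas2 and Acta2, were chosen after their values were seen.

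The labels number replicates in both groups but give no shared litter, day or batch, so the groups were not treated as paired. The design text calls the pools independent biological replicates. Alternatives changed the scaling, the filter, the variance model, the probe set per gene and the arrays included; leaving arrays out of the further lists was added after seeing the data.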

Additional observations from a re-analysis of the deposited data

How the results depend on the processing

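Under every alternative run, limma called 0 of the 40 genes, with adjusted p from 0.0549 upward. Over all probe sets it called 0 in the main comparison (3353 had an unadjusted p under 0.05) and 15 with median centring, 10 with 1 probe set per gene, 7 with the mean over a gene's probe sets, 17 at an adjusted p of 0.10 and 2245 with array weights. The array weights did not converge and gave P467L replicate 2 a weight of 34.1 against 0.148 to 0.901 for the others. Of 600 differences of single genes under an alternative, 590 kept their direction or moved by less than the spread between replicates and 10 changed direction. Without both arrays that stood apart, which leaves 1 non-transgenic array that is assumed, as in every fit with 1 such array, to vary like the P467L arrays, Ndufa2 measured -0.02, Ndufs3 -0.06, Ndufs7 -0.06, Ndufs8 -0.01, Ndufv1 -0.07 and Cox5a -0.15, and the medians were -0.12 for the 40 genes, -0.11 for complex I and -0.15 for complex IV. With median centring Ndufs4 measured 0.02. Leaving out 1 array at a time gave -0.07 to 0.05 for Ndufs1, -0.06 to 0.10 for Ndufv1, -0.07 to 0.03 for Uqcrc2 and -0.12 to -0.04 for the complex IV median. The number of genes whose groups did not overlap was 4 with all arrays, 2 with median centring and 8 with a second quantile normalization. It was 34 without both arrays that stood apart and 4 to 21 without 1 array. This count rises by construction when arrays are left out. The share among all probe sets is given for the main comparison only, so the other counts cannot be read against a background. Same-numbered arrays deviated together at correlations across probe sets of 0.11 for number 1 and 0.01 for number 2. The deviations of the 2 non-transgenic arrays from their mean mirror each other, so these values cannot decide on pairing. Among the 40 genes, replicate 1 was the highest P467L array in 37, ties included, and the higher non-transgenic array in 36. With the replicate number as a replicate block the complex IV median was -0.05, that of the 40 genes 0.00, and 0 of the 40 genes and 0 probe sets were called. Causes were not tested.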
